A study of Mus musculus with 36 samples.

Results

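The 32 genes described here are a list of astrocyte genes, read among the 52636 genes of a transcriptome of the mouse anterior cingulate cortex (aCC). The list was named by symbol, with earlier results of these data known, so it is not independent of them. The list holds Gfap and Vim, which its rule describes as genes of white matter or reactive astrocytes and sets apart from the other 30. The 36 libraries came from female young adult mice on a C57BL/6NTac background, 1 library per mouse, each from tissue punched out of the right aCC. Every mouse was wild type (WT) or had 1 targeted copy of Brd1 (Brd1+/-), a gene of a bromodomain protein that works in histone acetyltransferase complexes, and every mouse was injected with saline (vehicle) or with the tricyclic antidepressant imipramine (IMN, 10 mg/kg). Of the WT mice 8 had vehicle and 10 had IMN, and of the Brd1+/- mice 9 had either. On the first day all groups had an injection and then a tail suspension test. On the next day they had a second injection, an open field test and a forced swim before the brain was taken. The Brd1 deletion is carried by the line and not limited to astrocytes. The values are TPM (a length-corrected share of all transcripts of a library), and fold changes and scores are on the log2(TPM + 0.5) scale.

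Astrocytes are the glial cells that clear glutamate and GABA from synapses, return them to neurons as glutamine, and buffer potassium and water. They are joined to one another by gap junctions, wrap blood vessels with their endfeet, and form the glia limitans, the sheet of processes below the meninges. In grey matter of the cortex most astrocytes hold little of the intermediate filament protein GFAP, whereas astrocytes of white matter and of the glia limitans hold much of it.

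All 32 genes were found, and each had at least 1 TPM in each of the 36 libraries, so that all 32 entered the tests. Their summed TPM was a share of 0.363% to 0.504%, and averaged 0.409% ± 0.0354 (SD) over the WT mice with vehicle, 0.433% ± 0.0528 over those with IMN, and 0.415% ± 0.0372 and 0.43% ± 0.0421 over the Brd1+/- mice with vehicle and IMN. In such bulk tissue, fewer astrocytes and less RNA in each astrocyte cannot be told apart.

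The tissue held the defining markers of cortical neurons, with medians of 2857.9 TPM for Snap25 and 1148.1 TPM for Slc17a7. The library Brd1+/- vehicle 6 stood apart, with a choroid plexus score of 5.24 (next highest 0.50) and a striatal score of 6.83 (next 4.46), and WT vehicle 1 had one of the lowest fibroblast and one of the highest oligodendrocyte scores (0.43 and 7.31). A score is the mean log2(TPM + 0.5) of the markers of a cell type. Values without these libraries are given where they matter.

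Among the 5 transmitter genes, Glul, which encodes glutamine synthetase, had the highest median of the list at 852 TPM, with a range from 697.4 in WT IMN 5 to 1095.0 in Brd1+/- IMN 6. The glutamate transporter genes Slc1a2 and Slc1a3 had medians of 374.9 and 183.3 TPM. The GABA transporter gene Slc6a11 stood at 58.6 TPM, and Slc7a10, which encodes a transporter of small neutral amino acids, at 22.9 TPM. These 5 genes varied little, by at most 2.06-fold between the lowest and the highest of the 36 libraries.

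Among the 6 genes of water and ion handling, Ttyh1, a membrane protein gene of the tweety family, was highest with a median of 236.8 TPM. Mlc1 and Hepacam, which encode a pair of partner proteins at astrocyte junctions, had medians of 73.3 and 46.0 TPM. The potassium channel gene Kcnj10 stood at 57.6 TPM, the water channel gene Aqp4 at 35.0 TPM and the bicarbonate transporter gene Slc4a4 at 26.1 TPM. The gap junction genes Gja1 and Gjb6 had medians of 82.9 and 61.7 TPM.

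The 9 genes of metabolism ran from 7.28 TPM for Entpd2, an enzyme that breaks down extracellular ATP, to 413.5 TPM for Aldoc, an aldolase of glycolysis. Ndrg2 stood at 371.1 TPM, the phospholipid phosphatase gene Plpp3 at 107.9 TPM and Acsbg1, which activates long-chain fatty acids, at 57.8 TPM. Fabp7, a fatty acid-binding protein gene also known from radial glia, had 33.5 TPM, the folate enzyme gene Aldh1l1 28.7 TPM, the zinc transporter gene Slc39a12 22.8 TPM and Cbs, an enzyme of sulfur amino acid metabolism, 20.6 TPM.

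Receptor genes were low to moderate. Gpr37l1 had a median of 78.8 TPM, the neurotensin receptor gene Ntsr2 43.2 TPM, the growth factor receptor gene Fgfr3 28.7 TPM and the BMP receptor gene Bmpr1b 5.71 TPM, the lowest of the list. Sox9, which encodes a transcription factor of glial cells, was also near the bottom at 8.83 TPM. Among the secreted and calcium-binding proteins, the clusterin gene Clu had 569.2 TPM, the protease gene Htra1 86.1 TPM and S100b, which is also expressed by oligodendrocytes, 74.7 TPM. In all, 8 of the 32 genes had a median of at least 100 TPM and 3 lay under 10 TPM.

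**Figure D1:**
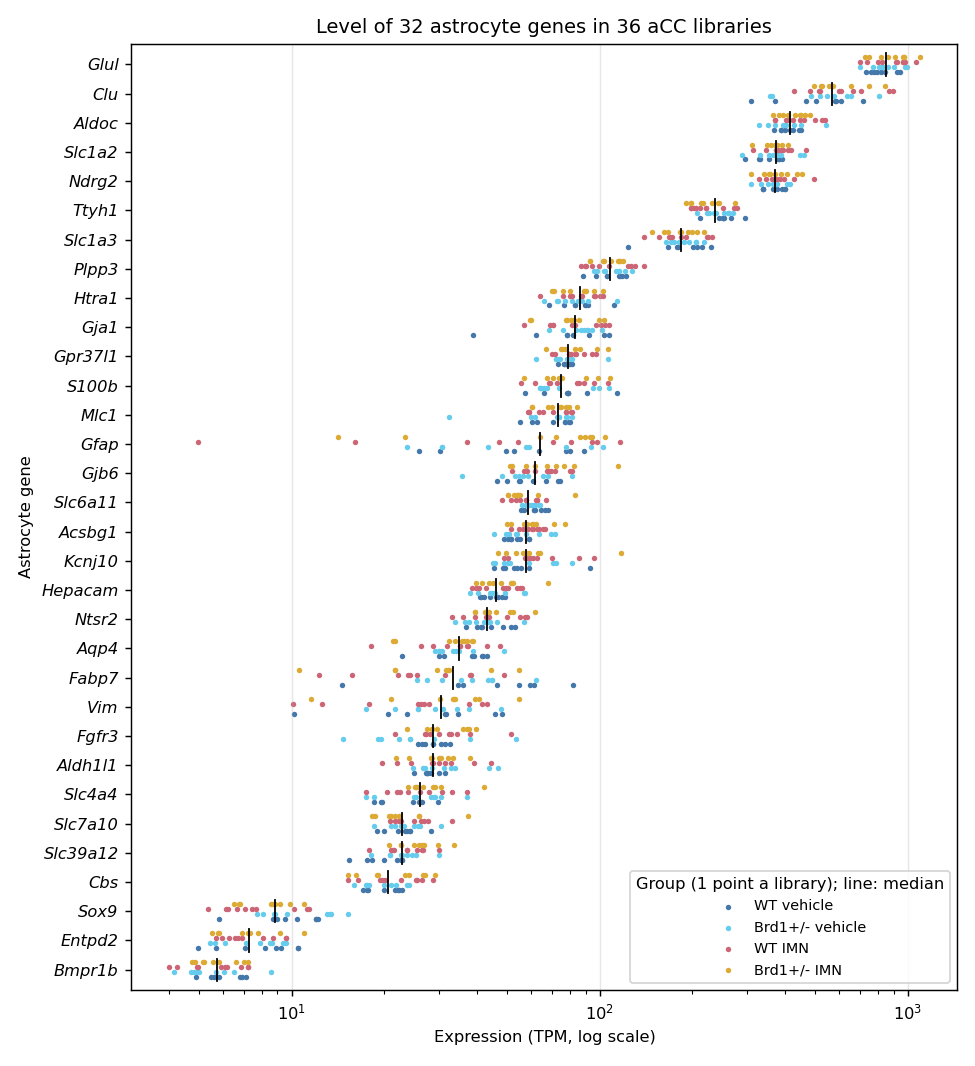
Expression of the 32 astrocyte genes in TPM (x axis, log scale) with 1 point per library, coloured by group, and a line at the median of the 36 libraries. Medians run from 5.71 TPM for Bmpr1b to 852 TPM for Glul, the 4 groups lie over one another for each gene, and Gfap has the widest spread, from 4.96 to 116.1 TPM.

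The plot of levels shows that the order of the genes was set by the gene and hardly by the group, and that Gfap was the exception in its spread. The SD of log2(TPM + 0.5) within groups was 1.01 for Gfap, larger than that of 97.6% of the 17696 genes that averaged 1 TPM or more. It was 0.62 for Vim (larger than 91.8% of genes) and 0.61 for Fabp7 (91.5%). The steadiest genes were Slc6a11 (0.15), Ndrg2 (0.15) and Slc1a2 (0.16). Without Gfap and Vim the median SD of the other 30 genes was 0.24, beside 0.25 for all genes of that level.

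Gfap lies at chr11:102887336-102900912 on the minus strand of GRCm38 (ENSMUSG00000020932) and encodes the glial fibrillary acidic protein. In WT vehicle its lowest, median and highest values were 25.9, 58.2 and 89.2 TPM, and in Brd1+/- vehicle 23.7, 57.6 and 102.2 TPM. In WT IMN they were 4.96, 62.5 and 116.1 TPM, and in Brd1+/- IMN 14.2, 86.1 and 104.1 TPM. The groups overlapped over most of their range, and the lowest library, WT IMN 4, was 23.4-fold below the highest, WT IMN 10, of the same group.

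Vim (chr2:13573927-13582826, plus strand, ENSMUSG00000026728) encodes vimentin, the other intermediate filament protein of the list, which endothelial and meningeal cells also hold. Its lowest, median and highest values were 10.2, 31.5 and 48.1 TPM in WT vehicle, 17.5, 29.3 and 47.9 TPM in Brd1+/- vehicle, 10.1, 26.7 and 43.0 TPM in WT IMN, and 11.6, 33.6 and 54.9 TPM in Brd1+/- IMN. As with Gfap, each group had low and high libraries, and no group stood apart. Means were 30.7 ± 12.6 (SD, n = 8), 30.1 ± 9.11 (n = 9), 27.0 ± 11.4 (n = 10) and 33.2 ± 12.2 TPM (n = 9) in the same order, and for Gfap 58.6 ± 23.2, 57.7 ± 28.5, 61.9 ± 36.4 and 71.2 ± 32.1 TPM.

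**Figure D2:**
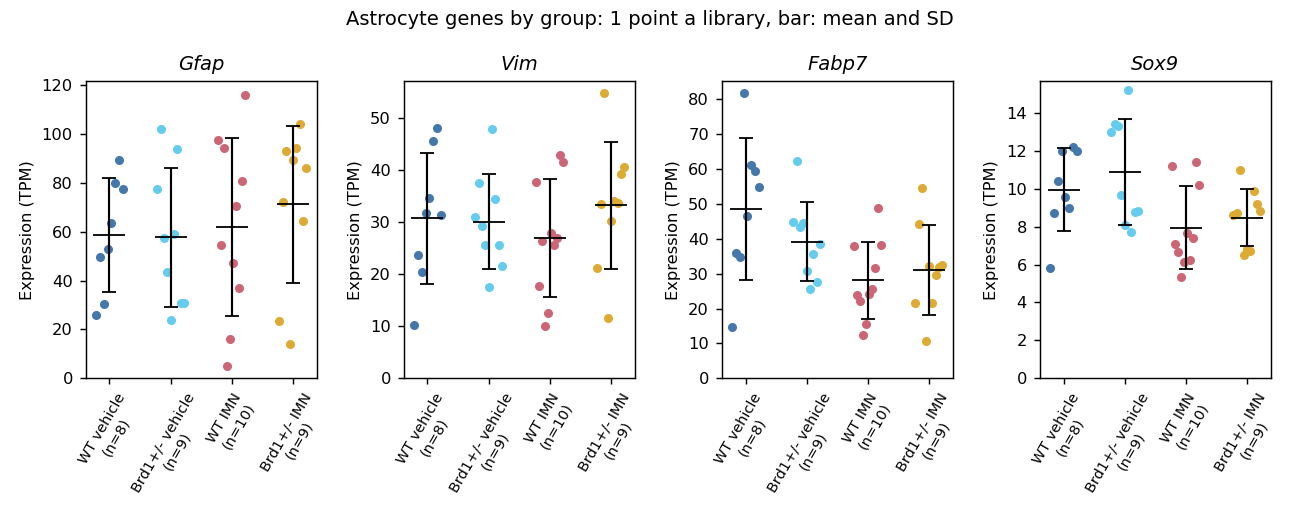
Expression of Gfap, Vim, Fabp7 and Sox9 in TPM (y axis, from 0) in the 4 groups (x axis, n in brackets), with 1 point per library and a bar for the mean with its SD. Gfap and Vim overlap fully between groups, whereas the group means of Fabp7 are 48.6 and 39.2 TPM in the vehicle groups and 28.1 and 31.0 TPM in the IMN groups.

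The panels of Gfap, Vim, Fabp7 and Sox9 show the same libraries near the bottom in several genes. WT IMN 4 had 4.96 TPM of Gfap, 10.1 of Vim, 12.3 of Fabp7 and 5.37 of Sox9. WT vehicle 1 had 25.9, 10.2, 14.6 and 5.82 TPM, and Brd1+/- IMN 4 had 14.2, 11.6, 10.6 and 6.53 TPM. WT IMN 5 was low too, with 16.1, 12.6, 15.7 and 6.12 TPM. S100b stood the other way round, at 106.8 TPM in WT IMN 4, 113.8 in WT vehicle 1 and 108.0 in Brd1+/- IMN 4. In WT IMN 5 it was less so, at 89.3 TPM, against a median of 74.7 TPM. Its group medians were 78.9 TPM (WT vehicle), 67.4 TPM (Brd1+/- vehicle), 78.4 TPM (WT IMN) and 74.1 TPM (Brd1+/- IMN), and its lowest values, from 55.7 to 63.9 TPM, and highest values, from 106.8 to 113.8 TPM, were alike in the 4 groups.

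How the genes varied together was therefore described across the 36 libraries after the mean of each group had been subtracted. Pearson's r over all pairs of the 32 genes had a median of 0.38, and 427 pairs (86.1%) had an r above 0. Pairs of all genes that averaged 1 TPM or more had a median of 0.05, with 58.5% above 0. Among markers of other cell types the median r was 0.98 for 10 oligodendrocyte, 0.82 for 7 fibroblast and meningeal, 0.54 for 7 microglial, 0.39 for 7 neuron and 0.31 for 7 endothelial markers, and it was 0.25 for 30 further astrocyte-enriched genes, so that the 32 genes lay between these lists. All points share the same libraries and are shares of a fixed total.

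The highest pairs joined Aqp4 with Gfap (r = 0.88), Slc1a3 with Fabp7 (0.88), Gfap with Vim (0.85), Slc1a3 with Vim (0.85) and Slc1a3 with Sox9 (0.83). Aqp4 and Plpp3 (0.82) and Acsbg1 and Gpr37l1 (0.82) were close behind. The 8 lowest pairs all held S100b or Kcnj10, with S100b against Vim at -0.78, against Sox9 at -0.77, against Fabp7 at -0.75 and against Slc1a3 at -0.72, and Kcnj10 against Sox9 at -0.58.

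Relations chosen for a test were computed on the log2 values as they stand, without subtraction of group means. Of 10 such relations tested across the 36 libraries by permutation, Gfap was most closely related to Vim (r = 0.85, rho = 0.77, both at p = 1e-05, the smallest that 100000 draws can give, and adjusted p = 5e-05 for r). Without WT IMN 4 and Brd1+/- IMN 4, the 2 libraries farthest from the median of Gfap, r was 0.79. Gfap was also related to Fabp7 (r = 0.64, p = 4e-05, rho = 0.44, p = 0.00744, adjusted p = 0.000133 and 0.0124), with r = 0.46 (adjusted p = 0.0126) and rho = 0.33 (adjusted p = 0.0892) without these 2 libraries. Genes with a shared role were related too, Mlc1 with Hepacam at r = 0.60 (p = 0.00025, rho = 0.73, p = 1e-05, adjusted p = 0.000625 for r) and Gja1 with Gjb6 at r = 0.47 (p = 0.00418, rho = 0.56, p = 0.00029, adjusted p = 0.00836 for r). Without the 2 farthest libraries these were 0.73 and 0.56. After subtraction of group means r was 0.85 for Gfap with Vim, 0.71 for Gfap with Fabp7, 0.61 for Mlc1 with Hepacam and 0.55 for Gja1 with Gjb6.

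For other genes with a shared role the relation did not pass. The r between Slc1a2 and Slc1a3, both glutamate transporter genes, was 0.24 (p = 0.153, rho = 0.30, p = 0.0788, adjusted p = 0.191 for r), and that between Aqp4 and Kcnj10, both of perivascular endfeet, was -0.14 (p = 0.405, rho = -0.12, p = 0.471, adjusted p = 0.405 for r). The relation of Gfap and Slc1a2 did not pass either (r = 0.15, p = 0.383, rho = 0.19, p = 0.254, adjusted p = 0.405 for r).

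The rule calls Gfap and Vim genes of white matter or reactive astrocytes, and the white matter part was set beside an oligodendrocyte score, the mean log2(TPM + 0.5) of 10 myelin genes. The r of Gfap with it was below 0 and did not pass (r = -0.27, p = 0.115, rho = -0.27, p = 0.109, adjusted p = 0.164 for r). Vim was negatively related (r = -0.45, p = 0.00601, rho = -0.47, p = 0.00418, adjusted p = 0.01 for r), and without WT vehicle 1 and WT IMN 4 this was -0.34 (p = 0.0485, adjusted p = 0.0808). Vim was positively related to the endothelial score (r = 0.66, p = 1e-05, rho = 0.70, p = 1e-05, adjusted p = 5e-05 for r, and r = 0.59 without these 2 libraries).

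When all 32 genes were set against the marker scores, again after subtraction of group means, the strongest relations were with a score of 7 fibroblast and meningeal genes. Of the 32 genes, 15 had an r above 0.5 with it, led by Vim (0.84), Fabp7 (0.83), Slc1a3 (0.82), Gfap (0.81) and Aqp4 (0.80), and S100b had -0.68. With the endothelial score 13 genes had an r above 0.5, led by Plpp3 (0.83), and with the neuron score 13 genes had an r below -0.5. With the oligodendrocyte score, Kcnj10 (0.57) and S100b (0.51) were above 0.5, and Slc1a3 (-0.71), Fabp7 (-0.70), Sox9 (-0.66) and Ttyh1 (-0.63) below -0.5. Slc1a2, Ndrg2, Aldh1l1 and Acsbg1 were close to 0 with the fibroblast score, between -0.11 and 0.19. The share of all genes past 0.5 or -0.5 was not computed, so these counts cannot be read as particular to astrocyte genes.

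**Figure D3:**
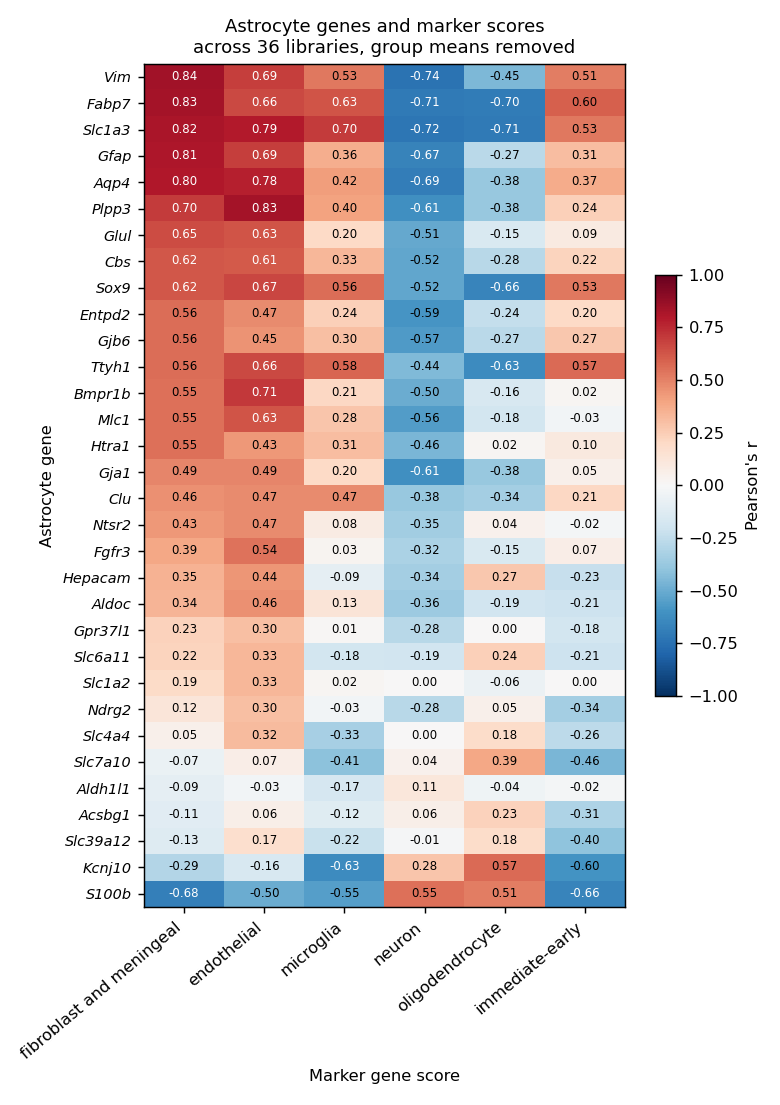
Pearson's r between each of the 32 astrocyte genes (rows) and 6 marker gene scores (columns) across the 36 libraries after subtraction of group means, from -1 (blue) to 1 (red), with rows ordered by the first column. Genes at the top, such as Vim (0.84) and Fabp7 (0.83), go with the fibroblast and meningeal score and against the neuron score, and Kcnj10 (-0.29) and S100b (-0.68) at the bottom do the reverse.

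The columns of that plot are not independent of one another. Across libraries the fibroblast score had an r of 0.80 with the endothelial score, -0.76 with the neuron score and -0.44 with the oligodendrocyte score. All 7 fibroblast markers were above 0 in all 36 libraries, with medians from 0.802 TPM for Col3a1 to 10.2 TPM for Dcn, and Dcn ranged from 1.34 to 32.9 TPM. The score ran from 0.43 to 2.90 in WT vehicle, 1.08 to 2.74 in Brd1+/- vehicle, 0.31 to 2.87 in WT IMN and 0.69 to 3.79 in Brd1+/- IMN.

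Because of these values, 6 relations with the fibroblast score were added and tested by permutation, on values without that subtraction. They were r = 0.81 for Gfap (p = 1e-05, rho = 0.76, p = 1e-05, adjusted p = 3e-05 for r), 0.83 for Vim (p = 1e-05, rho = 0.78, p = 1e-05, adjusted p = 3e-05), 0.68 for Fabp7 (p = 2e-05, rho = 0.61, p = 9e-05, adjusted p = 4e-05), 0.50 for Sox9 (p = 0.00184, rho = 0.53, p = 0.00087, adjusted p = 0.00221) and -0.64 for S100b (p = 3e-05, rho = -0.59, p = 0.00029, adjusted p = 4.5e-05). That of Kcnj10 was -0.27 (p = 0.106, rho = -0.31, p = 0.0659, adjusted p = 0.106 for r). Without the 2 libraries farthest from the median of each gene they were 0.76, 0.77, 0.59, 0.51, -0.55 and -0.44 in the same order. After subtraction of group means r was 0.81 for Gfap, 0.84 for Vim, 0.83 for Fabp7, 0.62 for Sox9, -0.68 for S100b and -0.29 for Kcnj10. These relations were chosen after the covariation had been seen.

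The libraries WT IMN 4, WT vehicle 1, WT IMN 5 and Brd1+/- IMN 4 had the lowest fibroblast scores (0.31, 0.43, 0.60 and 0.69). Across the other 32 libraries, and without subtraction of group means, r with the score was 0.69 for Gfap, 0.68 for Vim, 0.42 for Fabp7, -0.46 for S100b and 0.21 for Sox9. The relation of Sox9 was thus weak without these 4 libraries. Leaving out the lowest scores also narrows the range of the score, which can bring any r closer to 0.

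**Figure D4:**
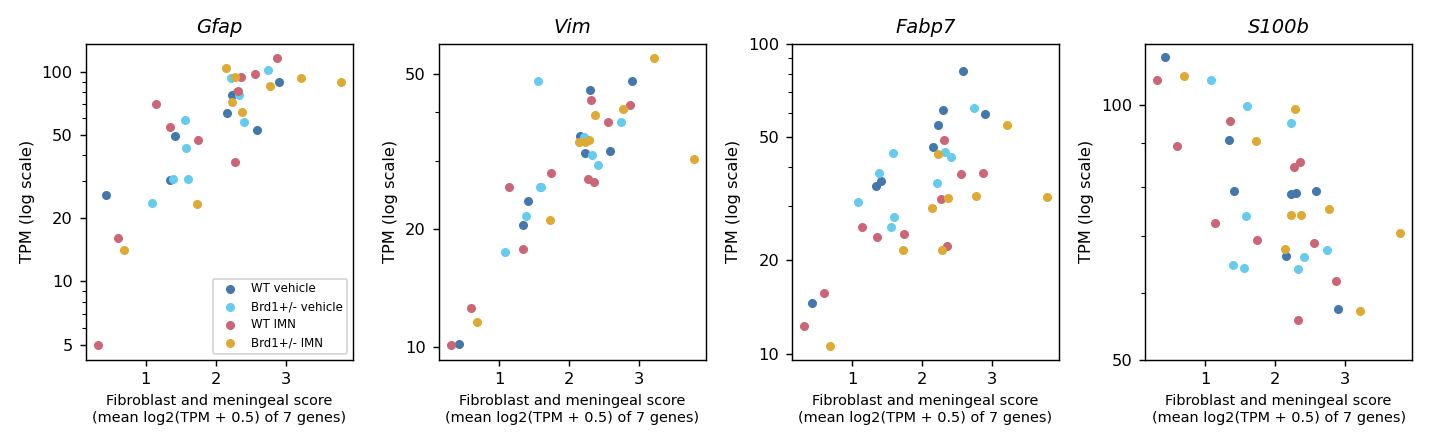
Expression of Gfap, Vim, Fabp7 and S100b in TPM (y axes, log scale) against the fibroblast and meningeal score (x axes, mean log2(TPM + 0.5) of 7 genes), with 1 point per library coloured by group. Gfap, Vim and Fabp7 go up with the score and S100b goes down, and the 4 libraries at the left, with scores from 0.31 to 0.69, are from 3 of the 4 groups.

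The scatter of the 4 genes shows groups whose ranges of the score overlap, and slopes were not compared between groups. Sequences around a RefSeq start are given for genes that moved together and for the one that moved against them. These promoters of Gfap, Vim, Fabp7 and S100b have 300 bases each on the gene's own strand. They hold 250 bases before the annotated start and 50 after it (RefSeq, GRCm38.p6). Of the 32 genes, 29 had an entry there, and Aqp4, Sox9 and Clu had none. Capitals mark a motif where one was found. The promoters are at chr11:102897151-102897450 (minus strand) for Gfap, chr2:13574061-13574360 (plus) for Vim, chr10:57784673-57784972 (plus) for Fabp7 and chr10:76253586-76253885 (plus) for S100b. Those of Gfap and Vim lie inside the gene spans given above, which come from another annotation. For these genes the RefSeq start is therefore not the outermost start.
Gfap: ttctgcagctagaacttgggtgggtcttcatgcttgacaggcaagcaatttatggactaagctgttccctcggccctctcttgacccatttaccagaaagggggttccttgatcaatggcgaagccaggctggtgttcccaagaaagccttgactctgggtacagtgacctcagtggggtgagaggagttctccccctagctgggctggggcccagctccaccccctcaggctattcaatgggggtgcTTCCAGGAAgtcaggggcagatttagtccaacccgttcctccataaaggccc
Vim: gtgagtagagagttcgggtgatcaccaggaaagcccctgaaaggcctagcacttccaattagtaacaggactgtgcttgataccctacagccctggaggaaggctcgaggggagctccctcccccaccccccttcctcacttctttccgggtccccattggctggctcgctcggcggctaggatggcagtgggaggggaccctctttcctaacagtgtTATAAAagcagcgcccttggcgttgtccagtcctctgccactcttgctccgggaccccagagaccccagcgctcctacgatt
Fabp7: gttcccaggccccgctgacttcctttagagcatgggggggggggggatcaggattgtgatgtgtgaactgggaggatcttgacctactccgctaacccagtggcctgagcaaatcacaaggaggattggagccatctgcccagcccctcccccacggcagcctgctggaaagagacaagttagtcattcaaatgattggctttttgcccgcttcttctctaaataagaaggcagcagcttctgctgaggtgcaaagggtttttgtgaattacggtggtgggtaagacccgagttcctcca
S100b: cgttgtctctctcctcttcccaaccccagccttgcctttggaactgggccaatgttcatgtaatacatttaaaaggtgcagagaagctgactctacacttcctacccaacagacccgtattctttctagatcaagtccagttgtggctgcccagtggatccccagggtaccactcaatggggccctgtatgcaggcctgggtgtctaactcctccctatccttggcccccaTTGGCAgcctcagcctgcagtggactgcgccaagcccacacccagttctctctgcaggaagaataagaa

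In Gfap the capitals mark TTCCAGGAA, a match to the palindrome TTCNNNGAA known as a site of STAT factors, which begins 2 bases before the annotated start. TTCNNNGAA was in the promoters of 5 of the 29 genes (Acsbg1, Aldoc, Gfap, Ntsr2 and Slc1a3) which is 17.2%, beside 9.55% of all 27025 genes, where a gene counts if any of its promoters of this length holds the motif. In Vim they mark the TATA box letters TATAAA, 32 bases before the start, which were in 5 of the 29 genes and in 15.7% of all genes. In S100b they mark TTGGCA, letters known from sites of NFI factors, 19 bases before the start, found in 3 of the 29 genes and in 16.1% of all genes. By promoter, the shares over all 32851 were 8.3%, 13.6% and 14.1% in that order. Fabp7 held none of the 3 motifs, which were searched on both strands and do not overlap one another in these promoters, and a match is a description of letters and not of binding.

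The effect of the Brd1 allele was compared first in vehicle and then in IMN mice. Brd1 itself, the check of the labels, averaged 26.4 ± 3.03 TPM (SD, n = 8) with vehicle and 23.3 ± 3.43 TPM (n = 10) with IMN in WT mice, and 16.8 ± 2.72 and 16.8 ± 2.1 TPM (n = 9 each) in Brd1+/- mice. With limma over 25572 genes, 0 of the 32 astrocyte genes passed an adjusted p of 0.05 in Brd1+/- vehicle against WT vehicle, where 0% of all genes did, and 0 had an unadjusted p under 0.05, beside 3.75% of all genes. Brd1 did not pass the adjusted threshold itself (log2 fold change -0.64, adjusted p = 0.062, lower in 9 of 9 mice), nor under IMN (-0.45, adjusted p = 0.882), so that a change of that size could go uncalled in either comparison. Its values in the 2 vehicle groups did not overlap. The paper, which used edgeR, reported Brd1 as significant between these vehicle groups after false discovery rate correction. The median log2 fold change was -0.01 over the 30 genes other than Gfap and Vim, and -0.02 over all genes.

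The members closest to a difference between these 2 groups were the zinc transporter gene Slc39a12 and the folate enzyme gene Aldh1l1. Slc39a12 had 15.4, 21.0 and 22.9 TPM (lowest, median, highest) in WT vehicle and 18.1, 22.9 and 30.2 TPM in Brd1+/- vehicle, overlapping groups with a log2 fold change of 0.20 ± 0.099 (SE, limma adjusted p = 1.0). Aldh1l1 differed by 0.20 ± 0.11 (adjusted p = 1.0). For Gfap the difference was -0.07 with a 95% interval from -0.73 to 0.58, and for Vim 0.04 with an interval from -0.49 to 0.58, so that differences of up to about those sizes could not be seen.

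Under IMN, Brd1+/- against WT also gave 0 of 32 genes at an adjusted p of 0.05 (0% of all genes) and 0 at an unadjusted p of 0.05 (3.23% of all genes). The 30 genes had a median log2 fold change of -0.00, beside 0.01 over all genes, and their 95% intervals lay between -0.44 and 0.68. Gfap differed by 0.37 (interval -0.70 to 1.44) and Vim by 0.32 (-0.26 to 0.91), and both were above the WT mean in 7 of 9 mice. Without WT IMN 4 the value of Gfap was 0.02, and that of Vim 0.19. The 7 fibroblast and meningeal markers were all higher in Brd1+/- IMN in fold, with a median of 0.67 and 0 of 7 at an unadjusted p of 0.05. These markers had a median r of 0.82 with one another, so they do not count as 7 separate results. With their score in the model, an alternative added later, Gfap was at -0.31 and Vim at -0.06 (adjusted p = 1.0 for both), so that the direction of both turned.

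Over both treatments, Brd1+/- against WT gave 0 of 32 genes at an adjusted p of 0.05, where 0.00391% of all genes passed (Brd1 itself). At an unadjusted p under 0.05 there was 1 gene, Slc39a12, beside 3.62% of all genes. Slc39a12 was higher by 0.16 ± 0.069 on the log2 scale (limma p = 0.0259, adjusted p = 0.999) and above the WT mean in 14 of 18 mice, and with groups that overlapped this did not pass. The genotype by IMN interaction, which tests whether IMN acted differently in Brd1+/- mice, gave 0 of 32 genes under either rule, beside 0% and 3.2% of all genes. It was 0.44 for Gfap (interval -0.86 to 1.75) and 0.28 for Vim (-0.53 to 1.09). With 1 library left out these ran from 0.10 to 0.70 and from 0.14 to 0.48, both lowest without WT IMN 4.

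IMN was compared with vehicle in each genotype and over both. In WT mice, 0 of 32 genes passed an adjusted p of 0.05 (0% of all genes), and 4 had an unadjusted p under 0.05, beside 6.6% of all genes. These were Acsbg1 (0.16 ± 0.057, adjusted p = 0.638) and Slc39a12 (0.23 ± 0.099, adjusted p = 0.711), which were higher with IMN, and Fabp7 (-0.74 ± 0.29, adjusted p = 0.671) and Ttyh1 (-0.17 ± 0.078, adjusted p = 0.750), which were lower, all as log2 fold changes with SE from limma. Acsbg1, Fabp7 and Slc39a12 were on their side of the vehicle mean in 9 of 10 IMN mice and Ttyh1 in 8 of 10. By an exact permutation test over 43758 arrangements the unadjusted p was 0.00992 for Acsbg1, 0.0336 for Fabp7, 0.0356 for Slc39a12 and 0.0503 for Ttyh1.

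In Brd1+/- mice, 0 of 32 genes passed an adjusted p of 0.05, where 0.00782% of all genes did, and 1 gene had an unadjusted p under 0.05, beside 5.52% of all genes. That gene was Sox9, lower by 0.32 ± 0.14 (adjusted p = 0.860 by limma) in 8 of 9 IMN mice. The difference of Fabp7 was -0.41 ± 0.24 (adjusted p = 0.924), in the direction it had in WT mice. Gfap differed by 0.24 (interval -0.56 to 1.04) in Brd1+/- mice and by -0.21 (-1.22 to 0.80) in WT mice.

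Over both genotypes, 19 IMN mice were set against 17 vehicle mice with genotype in the model. Again 0 of 32 genes passed an adjusted p of 0.05, where 0.274% of all genes did, and 7 had an unadjusted p under 0.05, which is 21.9% of the 32 beside 9.38% of all genes. Of the 7, Slc39a12, Acsbg1, Gjb6 and Clu were higher with IMN (3.9% of all genes) and Sox9, Fabp7 and Ttyh1 lower (5.48% of all genes). The median log2 fold change of the 30 genes was 0.05, beside -0.00 over all genes, and 11 of the 30 were below 0, beside 51% of all genes. This comparison shares its libraries with the comparisons within each genotype.

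Fabp7 (chr10:57784881-57788450, plus strand, ENSMUSG00000019874) had the largest fold. Its lowest, median and highest values were 14.6, 50.6 and 81.7 TPM in WT vehicle, 25.6, 38.4 and 62.2 TPM in Brd1+/- vehicle, 12.3, 25.0 and 48.8 TPM in WT IMN and 10.6, 31.8 and 54.7 TPM in Brd1+/- IMN. The medians of both IMN groups lay below those of both vehicle groups, but the ranges overlapped. The mean was 43.6 ± 16.4 TPM in vehicle (SD, n = 17) and 29.4 ± 11.8 TPM in IMN (n = 19), a log2 fold change of -0.58 ± 0.19 (SE, limma p = 0.00544, adjusted p = 0.254), with 16 of 19 IMN mice below the vehicle mean. Leaving out 1 library at a time gave -0.68 to -0.50. Leaving out Brd1+/- vehicle 6 and WT vehicle 1 together gave -0.72 (limma adjusted p = 0.0514), with 0.641% of all genes called. Both are vehicle libraries with the lowest Fabp7 of their group (25.6 and 14.6 TPM). IMN libraries with low Fabp7, such as WT IMN 4 (12.3 TPM), were kept, so that this fit favours a larger fall.

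Sox9 (chr11:112782224-112787760, plus strand, ENSMUSG00000000567) had 5.82, 10.0 and 12.2 TPM in WT vehicle, 7.72, 9.69 and 15.2 TPM in Brd1+/- vehicle, 5.37, 7.26 and 11.4 TPM in WT IMN and 6.53, 8.74 and 11.0 TPM in Brd1+/- IMN. Its groups overlapped as well. The mean was 10.5 ± 2.5 TPM in vehicle and 8.2 ± 1.87 TPM in IMN, a log2 fold change of -0.32 ± 0.11 (limma p = 0.00445, adjusted p = 0.229), with 15 of 19 IMN mice below the vehicle mean.

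By role, the unadjusted threshold, passed by 9.38% of all genes, was passed by 0 of 5 transmitter genes (median log2 fold change 0.03), 1 of 6 genes of water and ion handling (0.06), 1 of 2 gap junction genes, 3 of 9 genes of metabolism (0.05), 1 of 5 receptor and transcription factor genes (0.08), 1 of 3 secreted and calcium-binding genes (0.02) and 0 of 2 intermediate filament genes. The 3 genes of metabolism did not move one way, since Slc39a12 and Acsbg1 were higher and Fabp7 lower.

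Slc39a12 (chr2:14388316-14494977, plus strand, ENSMUSG00000036949) had 15.4, 21.0 and 22.9 TPM in WT vehicle and 17.8, 23.7 and 30.2 TPM in WT IMN. In Brd1+/- mice it had 18.1, 22.9 and 30.2 TPM with vehicle and 20.7, 25.9 and 33.6 TPM with IMN. The groups overlapped, with the highest median in Brd1+/- IMN and the lowest in WT vehicle. Ttyh1 (chr7:4119408-4136708, plus strand, ENSMUSG00000030428) had 211.2, 251.9 and 296.4 TPM in WT vehicle and 197.6, 216.4 and 278.8 TPM in WT IMN. In Brd1+/- mice it had 207.7, 238.4 and 271.0 TPM with vehicle and 190.4, 216.1 and 274.6 TPM with IMN, so that both IMN medians lay below both vehicle medians while the ranges overlapped.

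Slc39a12 was higher with IMN by 0.19 ± 0.069 (limma p = 0.00815, adjusted p = 0.297, 14 of 19 mice), and Ttyh1 lower by 0.15 ± 0.053 (p = 0.00885, adjusted p = 0.306, 15 of 19 mice). Acsbg1 was higher by 0.12, the connexin gene Gjb6 by 0.21 and the clusterin gene Clu by 0.23, with adjusted p of 0.464, 0.467 and 0.525. Their means were 55.6 ± 7.15 and 60.4 ± 6.7 TPM for Acsbg1, 59.0 ± 11.4 and 68.5 ± 14.9 TPM for Gjb6, and 534.2 ± 134.9 and 619.3 ± 136.3 TPM for Clu, in vehicle (n = 17) and IMN (n = 19), and their groups overlapped. Gja1, the other connexin gene, was at -0.01 (95% interval -0.22 to 0.19), and its difference from Gjb6 was not tested. Gfap (0.02, 95% interval -0.63 to 0.66) and Vim (-0.05, -0.45 to 0.35) were close to 0 with wide intervals. The glutamate transporter genes were bounded more tightly, Slc1a2 at 0.05 (-0.06 to 0.15) and Slc1a3 at -0.03 (-0.17 to 0.12), as was Glul at 0.09 (-0.03 to 0.20).

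**Figure D5:**
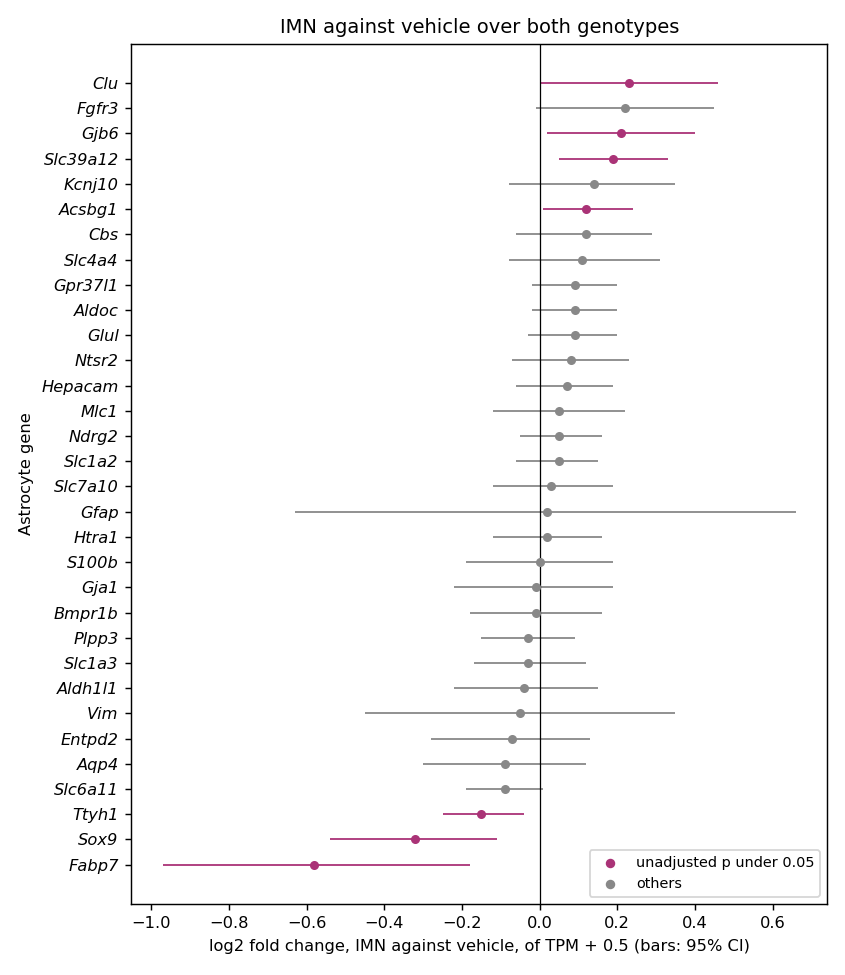
Log2 fold change of TPM + 0.5, IMN against vehicle over both genotypes (x axis), for the 32 astrocyte genes, with bars for the 95% interval and colour for an unadjusted p under 0.05. Fabp7 (-0.58) and Sox9 (-0.32) lie farthest to the left, Gfap has the widest interval (-0.63 to 0.66), and no gene passed an adjusted p of 0.05.

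The plot of fold changes shows that all genes but Fabp7 and Sox9 lay between -0.15 and 0.23. The lower genes Fabp7, Sox9 and Ttyh1 went with several marker scores in the earlier plot, as did Slc1a3 and Vim, which were at -0.03 and -0.05. The oligodendrocyte score was 4.96 ± 1.16 in WT vehicle, 5.30 ± 0.86 in Brd1+/- vehicle, 5.58 ± 1.18 in WT IMN and 5.48 ± 1.28 in Brd1+/- IMN (SD), and 10 of its 10 genes were higher with IMN in fold, 0 of them at an unadjusted p of 0.05. Of all genes 51% were below 0. The 10 genes had a median r of 0.98 with one another, so they do not count as 10 separate results. The fibroblast score was 1.92 ± 0.80, 1.88 ± 0.56, 1.75 ± 0.87 and 2.36 ± 0.88, with 0 of 7 genes at an unadjusted p of 0.05. The immediate-early score, of 13 genes that neurons switch on within minutes of activity, was 5.82 ± 0.47, 5.80 ± 0.24, 5.34 ± 0.27 and 5.30 ± 0.37, and had an r of 0.60 with Fabp7, 0.57 with Ttyh1 and 0.53 with Sox9 within groups. The r of this score was also above 0.5 with Slc1a3 (0.53) and Vim (0.51), and below -0.5 with S100b (-0.66) and Kcnj10 (-0.60), whose log2 fold changes with IMN were 0.00 and 0.14.

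With the neuron score in the model, Fabp7 differed by -0.63 (adjusted p = 0.0286) and Sox9 by -0.34 (adjusted p = 0.0871), and 0.469% of all genes were called. With the fibroblast score, added later, Fabp7 differed by -0.67 (adjusted p = 0.00148) and Sox9 by -0.36 (adjusted p = 0.0367), with 0.743% of all genes called. With the oligodendrocyte score Fabp7 was at -0.42 (adjusted p = 0.244) and Sox9 at -0.25 (adjusted p = 0.250). With the immediate-early score, also added later, Fabp7 was at -0.05 (interval -0.45 to 0.36, adjusted p = 0.969), Sox9 at -0.07 (-0.30 to 0.17, adjusted p = 0.907) and Ttyh1 at -0.01 (adjusted p = 0.965), with 0.043% of all genes called. The calls of Fabp7 and Sox9 thus depended on which score was in the model, and whether they move with the drug or with what the scores measure cannot be told apart here.

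Of the 13 immediate-early genes, 13 were lower with IMN in fold, beside 51% of all genes. At an unadjusted p under 0.05, 10 were lower (5.48% of all genes), and 3 fell at an adjusted p of 0.05, which 0.274% of all genes passed. This list too was chosen with earlier results of these data known, so its fall is a description and not an independent test. The activity-dependent transcription factor gene Npas4 fell from 37.6 ± 15.2 to 18.5 ± 4.9 TPM (log2 fold change -0.94, adjusted p = 0.00318 by limma, lower in 19 of 19 mice), Egr1 from 310.4 ± 80.1 to 196.1 ± 53.0 TPM (-0.66, adjusted p = 0.00939, 18 of 19) and the synaptic gene Arc, chosen outside the naming rule as the remaining one that passed, from 279.8 ± 73.8 to 176.2 ± 51.7 TPM (-0.67, adjusted p = 0.0108, 18 of 19). The first value of each pair is that of 17 vehicle mice and the second that of 19 IMN mice.

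Beside the 32 genes, 30 other astrocyte-enriched genes were read in the same comparison, and 1 of them rose at an adjusted p of 0.05 (0.274% of all genes passed), with 8 at an unadjusted p of 0.05 (6 higher, 2 lower, beside 9.38% of all genes) and a median of 0.03. The 1 gene was Etnppl, which encodes a phospho-lyase that breaks down phosphoethanolamine. It had 9.07, 10.6 and 18.3 TPM (lowest, median, highest) in WT vehicle, 6.86, 11.6 and 14.7 TPM in Brd1+/- vehicle, 13.1, 15.1 and 23.5 TPM in WT IMN and 13.3, 15.6 and 24.1 TPM in Brd1+/- IMN. Both IMN groups thus began above the vehicle medians, and the mean went from 11.5 ± 2.81 TPM in 17 vehicle mice to 16.1 ± 3.24 TPM in 19 IMN mice (log2 fold change 0.49 ± 0.097, limma adjusted p = 0.0156, 19 of 19 IMN mice above the vehicle mean). It passed in 13 of 14 alternatives and in 36 of 36 fits that left out 1 library. With the immediate-early score in the model its limma adjusted p was 0.283, and 0.043% of all genes were called. That score was itself lower in both IMN groups, so this fit cannot tell the drug from the score. The log2 fold change of Etnppl was 0.38 to 0.54 over the 14 alternatives.

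The gene next to it in that list was Fam107a, a gene of an actin-associated protein, at 275.1 ± 45.7 TPM in vehicle and 337.6 ± 54.4 TPM in IMN (0.30 ± 0.075, adjusted p = 0.0689 by limma, 17 of 19 mice). Of 34 genes of reactive astrocytes, 28 could be tested, and 0 passed, with a median of 0.00. At an unadjusted p of 0.05, 4 were higher and 1 lower, which is 17.9% of the 28 beside 9.38% of all genes. The lower gene was Hspb1 (-0.43), named outside the naming rule. The median of Lcn2 was 0.501 TPM, close to the 0.5 added to each value, so its fold is uncertain. Lcn2, a lipocalin gene, went from 0.482 ± 0.753 to 1.51 ± 1.46 TPM (0.93 ± 0.32, adjusted p = 0.267), and Osmr, the oncostatin M receptor gene, from 1.4 ± 0.519 to 2.16 ± 1.09 TPM (0.43 ± 0.17, adjusted p = 0.36), which did not pass. Of 12 genes of glucose, lactate and glycogen use, 0 passed and 0 had an unadjusted p under 0.05, with a median of 0.00.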

How the data were processed

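The authors trimmed single-end BGISEQ-500 reads with Trimmomatic, checked them with FastQC, aligned them to GRCm38 with HISAT2 2.1.0 and quantified genes with StringTie 1.3.4. The deposited values are TPM as the authors computed them, and 0 columns of the table were unmatched. TPM keep no depth, so that no counting error was computed, and the spread is that between mice. Whether the counting used strand is not given in the sources used here.

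TPM were transformed as log2(TPM + 0.5), and the 25572 genes that reached 0.1 TPM in 8 or more libraries were tested with limma 3.58.1 in R 4.3.3 (intensity trend in the empirical Bayes step, two-sided, Benjamini-Hochberg adjustment over all genes tested), each comparison of 2 groups on its own libraries. Single genes were also compared by exact permutation, and relations across libraries by 100000 draws, two-sided, adjusted over 10 planned and over 6 added relations (Python 3.11.15, numpy 2.4.6, scipy 1.17.1, pandas 2.3.3, matplotlib 3.10.9). Simulated data with known changes were used to test the limma step. Gene positions are from the annotation of GRCm38. No label says that replicate numbers pair the mice. The paper used litter-matched mice, and the labels do not give the litters. In the 4 group comparisons, 0 of 8, 2 of 9, 0 of 9 and 1 of 8 same-numbered pairs had a correlation over 0.1. Such correlations cannot exclude a pairing by litter, and the mice were compared as unpaired.

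Named were Gfap and Vim, all members by role, members with an unadjusted p under 0.05 (at most 4 a comparison with full statistics), the extremes of level and spread, and at most 2 genes of each other list with the smallest p under 0.05. The members and lists were chosen with earlier results of these data known. As alternatives the pseudocount (0.1 or 1), the filter (none, or a mean of 1 TPM), the scaling (median ratio, quantiles, or no mitochondrial genes), array weights, marker scores as covariates, a replicate block and the libraries used were varied.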

Additional observations from a re-analysis of the deposited data

Results flagged for a closer look

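Of 128 groups of values (32 genes in 4 groups), 9 held a library farther from the rest than Dixon's limit, where chance gives about 1 in 20. The genes vary together across libraries, so the 9 flags are not independent of one another. The share over all genes was not computed, so the count cannot be read as particular to astrocyte genes. In 5 genes the flagged library was Brd1+/- IMN 6 at the top of its group, with 83.2 TPM of Slc6a11 (next 63.0), 37.3 of Slc7a10 (next 26.0), 117.4 of Kcnj10 (next 64.0), 42.3 of Slc4a4 (next 30.5) and 68.0 of Hepacam (next 52.2). The same library had the lowest microglial (4.61), immediate-early (4.62) and striatal (2.98) scores of the 36. Its oligodendrocyte score of 7.57 was the next below the highest, 7.71 in WT IMN 7. The part of these scores was not tested.

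WT vehicle 1 had 93.2 TPM of Kcnj10 (next 59.2) and 5.82 TPM of Sox9, the lowest of its group (next 8.74). Brd1+/- vehicle 4 had the lowest Mlc1 of its group, 32.4 TPM (next 59.8). Brd1+/- vehicle 7 had the highest Gpr37l1, 106.3 TPM (next 81.2).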

How the results depend on the processing

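The count of astrocyte genes at an adjusted p under 0.05 was 0 in all 7 comparisons and stayed 0 in every fit that left out 1 library. It was above 0 in 2 settings of IMN against vehicle over both genotypes, 1 gene (Fabp7, -0.63) with the neuron score as a covariate and 2 (Fabp7, -0.67, and Sox9, -0.36) with the fibroblast score. In that comparison the number of members at an unadjusted p of 0.05 was 7, 4 with the immediate-early score and 5 to 9 with 1 library left out, and the split into higher and lower was 4 and 3, but 7 and 2 after quantile normalization. Without WT vehicle 1 and Brd1+/- vehicle 6, a library rich in choroid plexus and striatal markers, Fabp7 was at -0.72 (limma adjusted p = 0.0514). In that setting 0.641% of all genes were called, and both libraries left out had the lowest Fabp7 of their vehicle group. The relation of Vim with the oligodendrocyte score was -0.34 (adjusted p = 0.0808) and that of Kcnj10 with the fibroblast score -0.44 (adjusted p = 0.00821) without the 2 farthest libraries.

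Gfap and Vim changed sign often, never past the threshold. In Brd1+/- vehicle against WT vehicle Gfap was 0.01 with the oligodendrocyte score, and Vim -0.10 with array weights and -0.25 without the 2 libraries. In Brd1+/- IMN against WT IMN the fibroblast score gave -0.31 and -0.06. In Brd1+/- IMN against Brd1+/- vehicle the neuron score gave 0.00 and -0.05 and the fibroblast score -0.23 and -0.16. In WT IMN against WT vehicle the immediate-early score gave 0.29 and 0.41, and the oligodendrocyte score 0.03 for Vim. Over both genotypes Gfap was -0.06 with array weights, -0.07 with the neuron score, -0.14 with the fibroblast score and -0.04 without the 2 libraries, and Vim 0.05 with the oligodendrocyte and 0.41 with the immediate-early score. The fibroblast score gave -0.14 and 0.00 for Brd1+/- against WT over both treatments, and -0.23 and -0.15 for the interaction. The causes were not tested.

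With 1 library left out, Gfap ran from -0.22 to 0.06 and Vim from -0.16 to 0.15 in the vehicle mice (lowest without WT vehicle 1), Vim from -0.01 to 0.26 in Brd1+/- mice with IMN, Gfap from -0.36 to 0.14 in WT mice with IMN (highest without WT IMN 4), and over both genotypes Gfap from -0.06 to 0.19 and Vim from -0.14 to 0.03. Gfap for genotype over both treatments ran from -0.02 to 0.29.

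A replicate block left 0 members called in each comparison, with 37 calls over all genes in place of 70 for IMN against vehicle, and Gfap at 0.02 in the vehicle mice and -0.06 over both genotypes. No label says that the numbers pair the mice, and own-number pairs were the best match in at most 1 of 9. TPM without counts limit what can be said of low genes, and single libraries decide the value of Gfap.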
